A study of Arabidopsis thaliana with 8 samples.

Results

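The genes described here belong to the UGT, SCPL and BGLU families of Arabidopsis thaliana. Some members of these families attach sugars or acyl groups to small molecules of specialised metabolism or take sugars off them. A gene was included where its probe set names 1 gene in the platform's gene table, updated by the RefSeq gene table, and its symbol is UGT, SCPL or BGLU followed by a digit. UGT74B1, UGT78D2, BGLU28 and AT2G31790 were left out by that rule. This gave 93 genes of the 13350 named in this way on the array: 45 UGT, 29 SCPL and 19 BGLU genes. Each of the 93 has 1 probe set, so no choice between probe sets had to be made. The RefSeq table lists 147 genes with such symbols, so the 93 are a part of each family.

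Total RNA came from young Col-0 leaves (insertions 19 to 21), collected at 0 h. The 4 elevated samples are those labelled elevated, taken here as elevated CO2. The 4 not-elevated samples are from plants whose labels mention no elevated CO2. The level of 750 ppm and a stay of 24 h in a cuvette are stated for elevated replicate 1 alone, and elevated replicate 4 is labelled elevated with no gas named. Conditions common to all 8 samples were compost, 20 °C, 50% humidity, a light period of 10 h and, in the general growth text, a normal atmosphere. Neither group carries a transgene or a mutation by its labels. The title code of not-elevated replicate 1 differs from that of its group, and it is labelled with a letter only, so each test was also run without it. Separate plants are not stated for the replicates, so the p-values reflect only how far these samples varied, and that variation may be technical.

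UDP-dependent glycosyltransferases (UGTs) move a sugar from a nucleotide sugar to hormones, phenolics and other small molecules, which usually makes them more soluble and ready for storage in the vacuole. Serine carboxypeptidase-like (SCPL) proteins share the fold of peptidases, and some act instead as vacuolar acyltransferases that use glucose esters made by UGTs as acyl donors, as in the making of sinapoylmalate in leaves. BGLU proteins are glycoside hydrolases of the beta-glucosidase type, and most of them release the sugar again, for instance from stored hormone, phenolic or monolignol glucosides. A UGT and a BGLU can therefore act on the same pool in opposite directions, and an SCPL acyltransferase can act after a UGT.

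The deposited value of a probe set is a MAS5 signal in array units, with each array scaled to the same trimmed mean of 100 units. Over the 8 arrays, 67.2% of all probe sets averaged 20 units or more, and these 15296 were tested. Arrays correlated at 0.967 to 0.986 (Pearson's r across tested probe sets). The leaf gene RCA, for Rubisco activase, averaged 3445 ± 223 units in elevated samples and 3057 ± 492 in not-elevated samples (SD, n = 4 each), the single mesophyll marker of 8 that the gene tables name. The guard cell gene FMA had a mean of 62.7 units over 8 arrays, the root glucosidase gene PYK10 22.8 and the meristem gene CLV3 2.89, while none of the epidermal, phloem, xylem and floral markers is named. For tissue RNA, fewer cells of a type and less RNA per cell cannot be told apart.

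Of the 93 genes, 41 reached 20 units and 52 did not. The share that reached it was 55.2% of the SCPL genes (16 of 29), 40.0% of the UGT genes (18 of 45) and 36.8% of the BGLU genes (7 of 19). The median signal was 28.7 units over the SCPL genes, 12.9 over the UGT genes and 10.1 over the BGLU genes, against 43.9 over all probe sets. At least 100 units were read by 9 SCPL, 5 UGT and 5 BGLU genes, which is 31.0%, 11.1% and 26.3% of the families, against 29.4% of all probe sets. A signal depends on the probes as well as on the transcript, so these shares describe probe sets and were not tested as differences in transcript level. Around the limit, BGLU33 (19.5 units), SCPL33 (19.2) and SCPL22 (18.8) lay just below it, and SCPL30 (23.8) and UGT85A3 (25.5) just above.

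**Figure D1:**
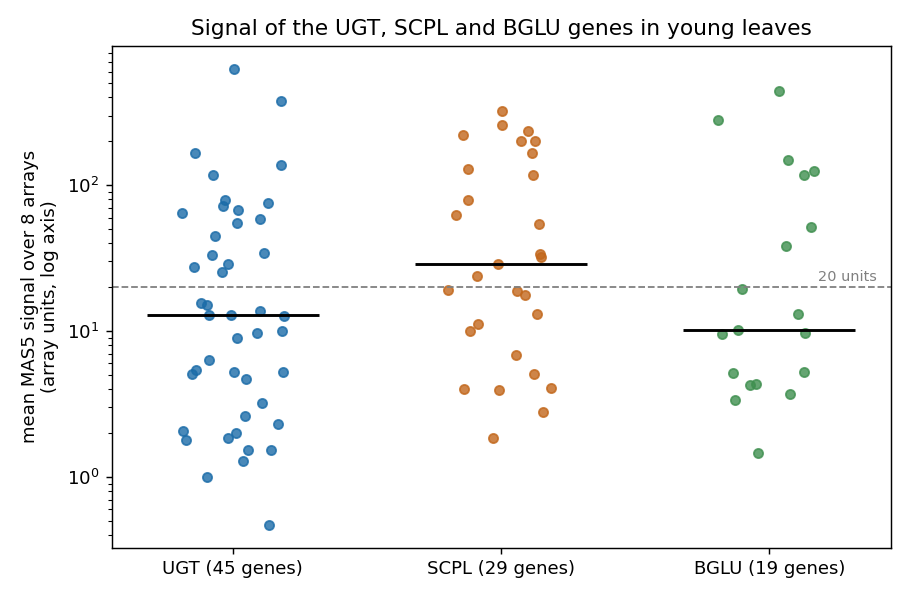
Mean MAS5 signal over 8 arrays (array units, log axis) of each UGT, SCPL and BGLU gene, 1 point a gene, with the family median as a bar and a dashed line at 20 units. The SCPL median of 28.7 units lies above the line, and the UGT and BGLU medians of 12.9 and 10.1 units lie below it.

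The brightest UGT gene was UGT88A1 (AT3G16520). It read 579, 653, 586 and 667 units in elevated replicates 1 to 4, against 641, 607, 656 and 635 units in not-elevated replicates 1 to 4. Its signals overlapped between the groups and differed little between arrays. UGT78D1 (AT1G30530), the flavonol 3-O-rhamnosyltransferase, read 378, 324, 467 and 277 units in elevated samples, against 454, 373, 321 and 406 in not-elevated samples. Elevated replicates 3 and 4 were the highest and the lowest of the 8, so its spread within the elevated group covered that of the not-elevated group. UGT74D1 (AT2G31750), which glucosylates auxins, was the third brightest with a mean of 167 units.

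Among the SCPL genes, SCPL25 (AT3G02110) read 285, 333, 343 and 299.9 units in elevated samples, against 307, 341, 327 and 358 in not-elevated samples. SCPL26 (AT2G35780) and SCPL29 (AT4G30810) followed with means of 257 and 236 units over 8 arrays. Of the 6 SCPL genes listed for sinapate ester or related acyl transfer (SCPL8, SCPL9, SCPL10, SCPL13, SCPL17 and SCPL19), none is among the 93. SCPL16 and SCPL18, the lowest-numbered SCPL genes among the 93, averaged 6.87 and 5.11 units and were not tested. The differences reported for SCPL genes are therefore no result about the listed acyltransferases.

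The brightest BGLU gene, BGLU44 (AT3G18080), read 432, 445, 445 and 445 units in elevated samples, against 440, 425, 447 and 455 in not-elevated samples. Its coefficient of variation over the 8 arrays was 2.15%, and 0.01% of all tested probe sets had a smaller one. BGLU40 (AT1G26560) averaged 277 units and BGLU16 (AT3G60130) 148 units over 8 arrays. Other steady genes were SCPL20, UGT88A1 and SCPL26, with coefficients of variation of 4.90%, 5.33% and 5.81%, against a median of 13.3% over all tested probe sets. At the other end, SCPL43 and UGT85A3, both dim, varied by 32.6% and 31.7%.

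The comparison asks whether the elevated CO2 group has other transcript levels of these genes in young leaves. None of the 41 tested genes passed a limma adjusted p of 0.05, against 0.314% of all tested probe sets (48 of 15296). At an unadjusted p under 0.05 stood 7 of the 41 (17.1%), against 11.1% of all tested probe sets. All 7 had lower signals in elevated samples, where 6.05% of all tested probe sets met the same limit in that direction. The count depended on which array was left out. Leaving out the replicate 2 array of either group gave 1 of 41 (9.92% of all for the elevated and 9.98% for the not-elevated array). Leaving out the replicate 4 array of either group gave 3 (8.64% and 8.52% of all, in the same order). The count was 5 without elevated replicate 1 (11.2% of all) and 8 without elevated replicate 3 (13.0%). Without not-elevated replicate 1 or 3 it was 6 (11.3% and 9.12% of all). The direction was not uniform under every setting either, since 5 of 6 were lower with quantile normalization, 6 of 7 with a common median and 7 of 8 without elevated replicate 3. The 7 were the UGT genes UGT87A2, UGT84A3, UGT74D1, UGT76E11 and UGT71C4 and the SCPL genes SCPL34 and SCPL42. In each of the 41 genes the signals of the groups overlapped, while they did not overlap in 6.11% of all tested probe sets.

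The median log2(signal + 10) difference, elevated minus not elevated, was -0.05 over 18 UGT genes, -0.05 over 16 SCPL genes and -0.04 over 7 BGLU genes, against 0.0013 over all tested probe sets. Lower in elevated samples were 11 of 18 UGT, 10 of 16 SCPL and 4 of 7 BGLU genes, or 61.0% of the 41, against 49.6% of all tested probe sets. These medians differed from each other by less than the SD of a family median between arrays of a group, which was 0.08 for UGT, 0.05 for SCPL and 0.08 for BGLU genes. This SD is that of single arrays and not the error of a difference between groups or families. Whether the families differ in their change was not tested.

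The precision differed from gene to gene. For 32 of the 41 genes the 95% interval of the log2 difference lay within 0.5 on either side of 0, against 80.4% of all tested probe sets. This held for 7 of 7 BGLU, 13 of 16 SCPL and 12 of 18 UGT genes. For BGLU44 the difference was 0.0004, with an interval of -0.16 to 0.16, and for UGT88A1 it was -0.03 (-0.20 to 0.14). For UGT85A3, a dim and variable gene, the interval ran from -0.39 to 0.56, so differences within that range in either direction were not excluded.

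**Figure D2:**
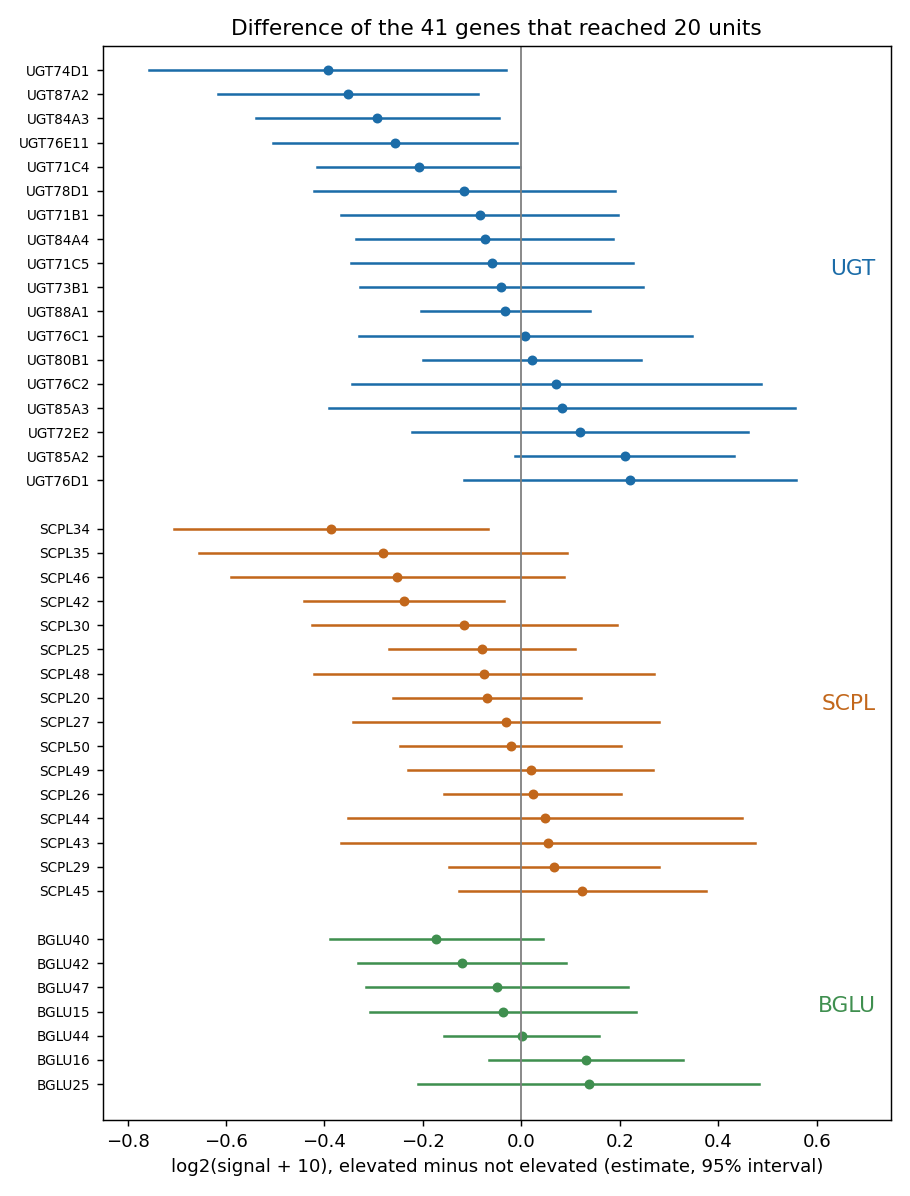
Difference of log2(signal + 10), elevated minus not elevated, for the 41 genes that reached 20 units, with the limma estimate as a point and its 95% interval as a line (4 arrays a group). Estimates ran from -0.39 (UGT74D1) to 0.22 (UGT76D1), and the 7 intervals that do not reach 0 all lie on the lower side.

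The smallest p among the UGT genes belonged to UGT87A2 (AT2G30140), which influences flowering time through the repressor FLC. It read 68.9, 62.1, 72.2 and 70.2 units in elevated replicates 1 to 4, against 69.4, 99.6, 85.8 and 109 units in not-elevated replicates 1 to 4. Of the not-elevated arrays, replicate 1 lay among the elevated ones and the other 3 lay above all of them. The log2 difference was -0.35 ± 0.12 (SE), with a limma adjusted p = 0.285. Without not-elevated replicate 1 it was -0.46, with an adjusted p = 0.0720, still not past the threshold.

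UGT74D1 had a log2 difference of -0.39 ± 0.17 (SE; limma adjusted p = 0.409). It read 123, 107, 211 and 139 units in elevated samples, against 199, 231, 161 and 167 units in not-elevated samples. Elevated replicate 3 was the second highest of the 8, and the other 3 elevated arrays were the lowest 3. Without elevated replicate 3 the log2 difference was -0.58, with an adjusted p = 0.0733.

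UGT84A3 (AT4G15490) makes glucose esters of hydroxycinnamic acids, the donors that SCPL acyltransferases use. It read 59.7, 53.8, 69.2 and 54.1 units in elevated samples, against 63.1, 79.5, 71.2 and 85.8 in not-elevated samples. Elevated replicate 3 lay above not-elevated replicate 1, and the remaining elevated arrays lay below all not-elevated ones. The log2 difference was -0.29 ± 0.12 (SE; limma adjusted p = 0.353). Its neighbour and close relative UGT84A4 averaged 33.1 ± 3.62 units in elevated and 35.3 ± 3.39 units in not-elevated samples (SD, n = 4 each, as for all such errors). UGT84A1, of the same group, stayed under 20 units in every array, with 3.58 ± 1.42 and 6.97 ± 3.55 units.

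The remaining UGT genes with the smallest p were UGT76E11, UGT71C4 and UGT85A2, for which no role is stated here. UGT76E11 (AT3G46670) averaged 68.4 ± 12.1 units in elevated and 83.1 ± 6.94 in not-elevated samples, and UGT71C4 (AT1G07250) 107.7 ± 4.42 and 126.6 ± 14.3 units. Their log2 differences were -0.26 and -0.21, with adjusted p = 0.433 and 0.442. UGT85A2 (AT1G22360) was higher on average in elevated samples, with 77.8 ± 9.38 units against 65.7 ± 4.16 units in not-elevated samples (log2 difference 0.21, adjusted p = 0.488). In each of the 3 the groups overlapped.

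In the SCPL family, SCPL34 (AT5G23210) read 35.3, 19.2, 26.2 and 26.8 units in elevated samples, against 34.7, 43.4, 40.0 and 33.2 in not-elevated samples. Elevated replicate 1 lay within the not-elevated range and the other 3 elevated arrays lay below it. Its log2 difference was -0.39 ± 0.15 (SE; limma adjusted p = 0.340). SCPL42 (AT5G42240), a brighter gene, read 214, 193, 221 and 182 units in elevated samples, against 213, 265, 236 and 249 in not-elevated samples (log2 difference -0.24 ± 0.09 SE; adjusted p = 0.360). Not-elevated replicate 1 was again the low array of its group and lay within the elevated range.

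The next SCPL genes by p were SCPL35, SCPL46, SCPL45 and SCPL25. SCPL35 (AT5G08260) read 148, 154, 257 and 167 units in elevated samples, against 163, 249, 199 and 276 in not-elevated samples, with elevated replicate 3 apart from the other 3 of its group. SCPL46 (AT2G33530) averaged 106 ± 20.9 and 129 ± 32.9 units in elevated and not-elevated samples, and SCPL45 (AT1G28110) 135 ± 9.38 and 124 ± 21.03 units. Their log2 differences were -0.28, -0.25 and 0.12, and -0.08 for SCPL25, with limma adjusted p between 0.591 and 0.801.

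None of the 7 tested BGLU genes had an unadjusted p under 0.05. BGLU40 read 217, 264, 261 and 302 units in elevated samples, against 298, 297, 313 and 268 in not-elevated samples. The highest elevated array lay inside the not-elevated range. BGLU16 averaged 155 ± 13.2 and 141 ± 9.35 units in elevated and not-elevated samples, and BGLU42 (AT5G36890), known from roots for its part in induced resistance and iron nutrition, 119 ± 10.9 and 131 ± 12.8 units. The log2 differences of these 3 were -0.17, 0.13 and -0.12, with limma adjusted p of 0.571, 0.647 and 0.708. For BGLU25 the lowest signal, 71.2 units, was that of not-elevated replicate 1, and the other 7 arrays ranged from 105 to 151 units. BGLU15, which breaks down flavonol glycosides, averaged 51.4 ± 10.45 units in elevated and 52.4 ± 3.99 units in not-elevated samples.

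**Figure D3:**
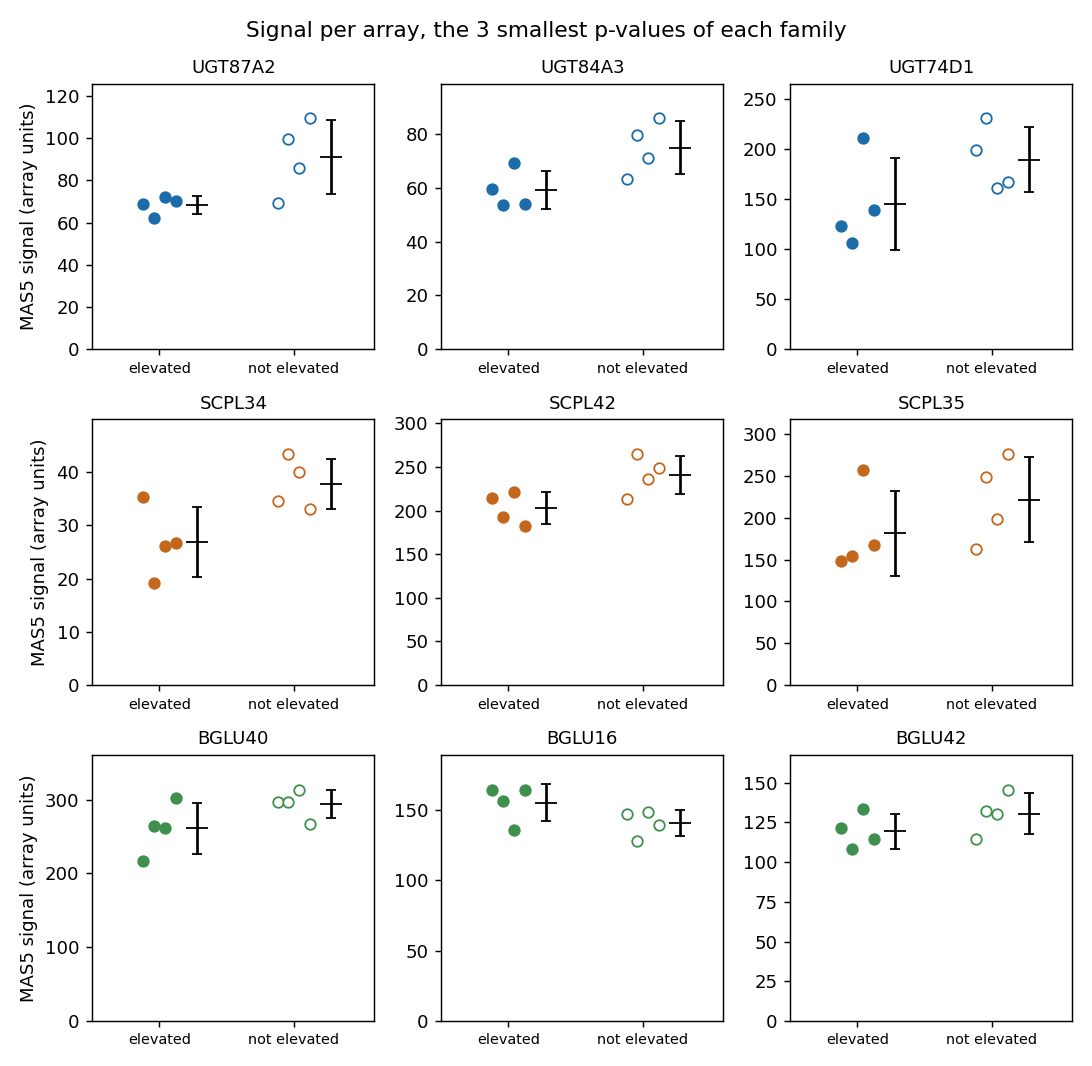
MAS5 signal (array units, axes from 0) in each array for the 3 genes of each family with the smallest p, UGT on top, SCPL in the middle and BGLU below. Filled points are elevated arrays, open points not-elevated arrays, in order of replicate 1 to 4, and bars give mean and SD (n = 4). The groups overlap in all 9 genes.

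Of the 27 genes with a listed role, 12 reached 20 units, and several of the 27 act on hormones. UGT76C1, which attaches glucose to a ring nitrogen of cytokinins, averaged 55.6 ± 11.9 units in elevated and 55.3 ± 11.98 units in not-elevated samples. Its neighbour UGT76C2, with the same activity, averaged 61.0 ± 18.9 and 56.4 ± 12.9 units. UGT71C5, which makes the glucose ester of abscisic acid, averaged 43.6 ± 6.56 units in elevated and 45.96 ± 7.36 units in not-elevated samples (log2 difference -0.06, 95% interval -0.35 to 0.23). UGT71B6 and UGT71B8, which also act on abscisic acid, averaged 0.45 ± 0.12 and 2.65 ± 1.32 units in elevated samples, against 0.50 ± 0.11 and 1.34 ± 0.64 units in not-elevated samples, too dim to be tested. The glucosidase gene BGLU33, linked to the release of abscisic acid in the vacuole, averaged 21.0 ± 7.35 units in elevated and 18.0 ± 3.24 units in not-elevated samples. The auxin transferase genes UGT84B1 and UGT84B2 had means of 2.31 and 3.20 units over 8 arrays, where UGT74D1 had 167.

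Of 5 UGT genes listed for salicylate and defence, 3 have a probe set that names them alone, and all 3 read under 20 units on average. UGT74F1, which makes salicylate glucoside, averaged 4.82 ± 1.5 units in elevated and 5.96 ± 3.23 in not-elevated samples. UGT76B1, which glucosylates isoleucic acid and salicylate, averaged 2.66 ± 3.43 and 9.97 ± 6.64 units, and its signals stayed under 20 units in every array. Detection calls were not used, so it is unknown whether signals this low stand for any transcript. UGT73B5, which responds to pathogens, had a mean of 2.08 units. UGT73B3, also listed, shares its probe set with UGT73B2, and that probe set averaged 12.9 ± 11.25 units in elevated and 35.3 ± 20.3 units in not-elevated samples.

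Several genes are listed for phenolic products, and since probes differ between them, their signals are given without ranking transcript levels. UGT72E2, which glucosylates monolignols, averaged 35.1 ± 6.86 and 31.7 ± 7.48 units in elevated and not-elevated samples, and UGT72E1 and UGT72E3 had means of 5.23 and 1.84 units over 8 arrays. Of the related glucosidase genes, BGLU47 averaged 37.45 ± 6.3 and 38.8 ± 1.89 units, and BGLU45 and BGLU46, which release monolignols, had means of 9.64 and 1.46 units. UGT78D1 had a mean of 375 units, and UGT78D3, the flavonol arabinosyltransferase, 9.74 units. UGT80B1, which glucosylates sterols and belongs to another branch of glycosyltransferases, averaged 64.5 ± 4.75 and 63.5 ± 6.93 units in elevated and not-elevated samples (log2 difference 0.02, 95% interval -0.20 to 0.24).

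Many of the 93 genes lie next to a relative on the chromosome. With at most 1 other gene between them in the RefSeq gene order, 42 genes formed 19 runs of 2 to 4 members of one family. In these runs 31.0% of the genes (13 of 42) reached 20 units, against 54.9% of the genes outside them (28 of 51). Runs were formed from the 93 alone, so a gene outside them may still lie next to a relative that is not among the 93. One run, UGT76C1 with UGT76C2, had all members over 20 units, 8 runs had some and 10 had none. BGLU44 had a mean of 442 units, where its neighbour BGLU43 had 3.37. SCPL26 had 257 units and its neighbour SCPL28 had 13.1, and UGT76E11 had 75.7 units and its neighbour UGT76E12 had 1.53. Probes differ between such genes, so these are signals of probe sets and not ratios of transcripts.

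**Figure D4:**
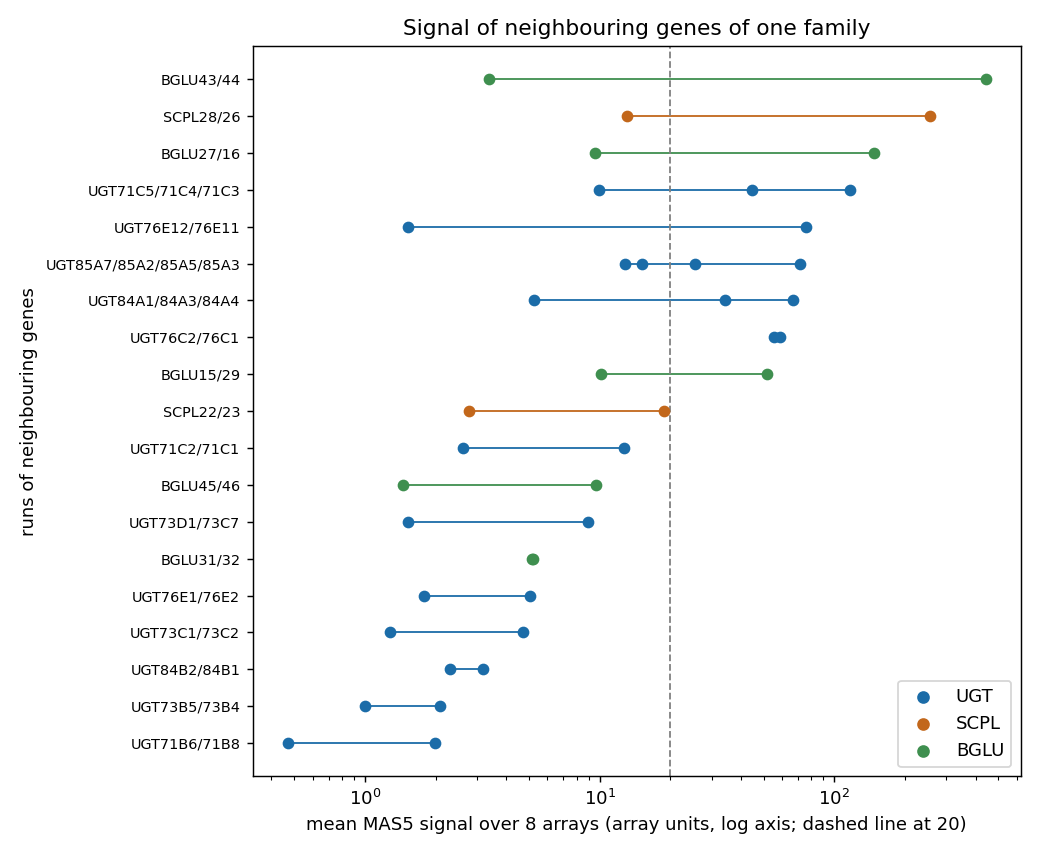
Mean MAS5 signal over 8 arrays (array units, log axis) in the 19 runs of neighbouring genes of one family, 1 point a gene, points of a run joined, with a dashed line at 20 units. In 8 runs the line falls between members, from BGLU43 and BGLU44 (3.37 and 442 units) to BGLU29 and BGLU15 (10.1 and 51.9 units).

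The arrays of a group were not alike in these genes. Elevated replicate 1 was the highest of the 8 arrays in 11 of the 41 genes (26.8%), against 21.8% of all tested probe sets, and the lowest in 7 (17.1%), against 16.0%. Not-elevated replicates 4 and 2 were the highest in 9 (22.0%) and 8 (19.5%) of the 41, against 12.9% and 11.9% of all. Elevated replicate 2 was the lowest in 9 (22.0%), against 11.0% of all, and elevated replicate 3 was the lowest in 7 and the highest in 7. As a median over the 41 genes, log2 signals deviated from each gene's own mean by -0.113 to 0.004 in the elevated arrays and by -0.017 to 0.093 in the not-elevated arrays, and elevated replicate 1 (0.004) lay above not-elevated replicate 1 (-0.017), the single overlap of the groups in this measure. The same median over all tested probe sets stayed between -0.011 and 0.024. Scaling to a common trimmed mean keeps that median small, and a median over only 41 genes can vary more. The ranges are therefore not a like comparison, and other sets of that size were not examined. UGT76C2 and UGT85A3 had their lowest signals in elevated replicate 2, with 34.3 and 11.2 units, against 42.6 to 75.9 and 17.4 to 35.3 units in the other 7 arrays.

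**Figure D5:**
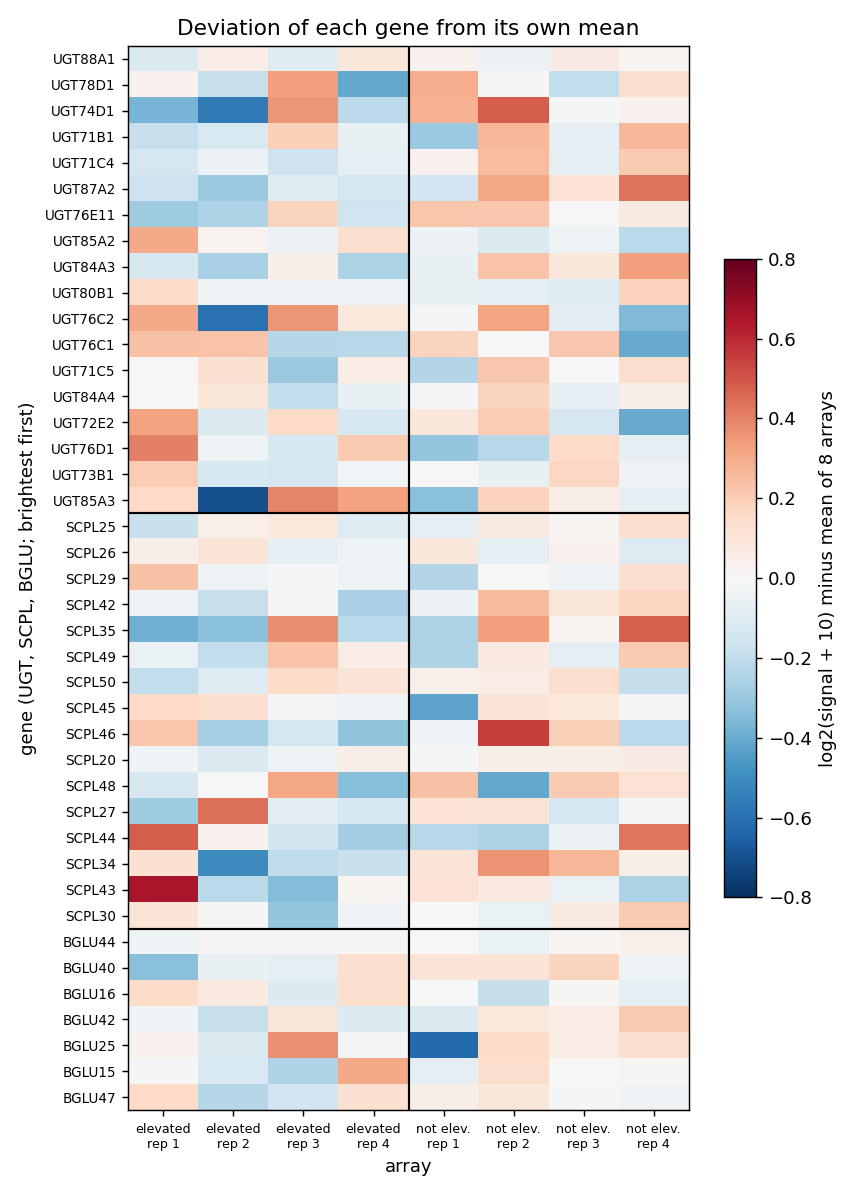
Deviation of log2(signal + 10) from each gene's mean over 8 arrays for the 41 genes, red above and blue below the mean, elevated arrays on the left and not-elevated arrays on the right of the vertical line. UGT74D1 and SCPL35 are low in elevated replicates 1, 2 and 4 and high in elevated replicate 3, and BGLU44 is nearly even across the arrays.

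The 52 genes under 20 units included 42 with fewer than 20 units in every array and 37 with a mean under 10 units. Of these 52, 1 gene had groups that did not overlap, against 2.67% of all probe sets under 20 units, and it was picked out after its values were seen. BGLU36 read 5.02, 12.1, 6.38 and 6.90 units in elevated samples, against 1.13, 1.14, 0.51 and 1.47 units in not-elevated samples. Without a filter on signal its log2 difference was 0.65, with a limma adjusted p = 0.122, not past the threshold.

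Genes around these families were thinly represented. Of 50 genes listed for the steps before glucosylation, the supply of UDP-sugars, relatives under another symbol and anthocyanin acyl transfer, 7 are named, 6 were tested and none passed the threshold, with 2 higher and 4 lower in elevated samples. HCT, of monolignol and hydroxycinnamate synthesis, averaged 614 ± 22.8 units in elevated and 626 ± 21.6 units in not-elevated samples (SD, n = 4 each). ALDH2C4, whose enzyme makes ferulate and sinapate, averaged 355 ± 33.4 and 423 ± 64.4 units (log2 difference -0.24, limma adjusted p = 0.444). USP, which forms UDP-sugars, averaged 166 ± 7.86 and 159.9 ± 11.6 units, and AT5MAT, an anthocyanin malonyltransferase gene, 74.7 ± 18.3 and 61.9 ± 16.5 units. PYK10, a BGLU-type glucosidase of endoplasmic reticulum bodies, averaged 22.3 ± 10.8 and 23.3 ± 2.42 units, and NAI2, needed for these bodies, 58.0 ± 11.0 and 63.5 ± 11.8 units. NAI1, a regulator of the same bodies, was the gene of the 7 too dim to be tested. It averaged 11.4 ± 1.88 units in elevated and 5.92 ± 2.79 units in not-elevated samples. Its signals were higher in all elevated arrays than in any not-elevated array. Groups did not overlap, in either direction, in 2.67% of all probe sets under 20 units. Whether signals this low stand for any transcript is unknown.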

How the data were processed

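The table holds 1 intensity per probe set and array on a linear scale, deposited by the authors. It was computed with MAS5 according to the submitters' processing notes, where no version stands. Its trimmed mean, with 2% removed at each end, was 100 units on every array, so a change shared by all transcripts is hidden. Not used here are detection calls and sequences.

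Of 22746 probe sets that are no controls, the 15296 averaging 20 units or more were compared by limma 3.58.1 in R 4.3.3 (lmFit, then eBayes with its trend option) on log2(signal + 10). This pseudocount understates differences of dim genes. P-values are two-sided, with Benjamini-Hochberg adjustment over the 15296. Names come from the platform table, updated by gene number through the RefSeq table of TAIR10.1, without coordinates.

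Groups follow the labels. Members, lists and alternatives were chosen with earlier results of these data known. In each family the named genes are the 6 tested ones with the smallest p, the 3 brightest and those with a listed role. Other genes, such as UGT85A3, SCPL43, UGT76D1 and BGLU36, are mentioned outside this rule, for their values or their place on the chromosome. Counts of named genes leave them out. Each group had 4 arrays, which limits the precision. Alternatives covered scaling, pseudocount, filter, variance trend, array weights, replicate number and left-out arrays.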

Additional observations from a re-analysis of the deposited data

Results flagged for a closer look

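Dixon's test was applied to the 4 signals of each group in the 29 named genes that were tested, to find an array far from its group. It picked out 5 of 58 groups, where the nominal rate of the test gives 2.9. The share picked out over all tested probe sets is not given, so the count is no result about these genes. For BGLU25, not-elevated replicate 1 was low at 71.2 units, with 120.0 to 129.1 in its group otherwise. For BGLU44, elevated replicate 1 was low at 431.8 units, with 444.7 to 445.3 otherwise. For SCPL29 the same array was high at 278.4 units, with 227.8 to 232.0 otherwise. For UGT80B1 it was high at 71.6 units, with 61.9 to 62.3 otherwise, and not-elevated replicate 4 was high at 73.8 units, with 59.1 to 60.9 otherwise. Elevated replicate 1 accounts for 3 of the 5. Over all tested probe sets it was also the array most often highest (21.8%) and most often lowest (16.0%) of the 8.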

How the results depend on the processing

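None of the UGT, SCPL and BGLU genes passed a limma adjusted p of 0.05 under any of the 18 alternatives. Between 1 and 8 of the genes fitted had an unadjusted p under 0.05, against 8.52% to 13.5% of all probe sets fitted. With no filter on signal, 7 of 93 had such a p, against 8.99% of all, and 6 of the 7 were lower in elevated samples. The smallest adjusted p of these families under any alternative was 0.0720, for UGT87A2 without not-elevated replicate 1. The probe sets past the threshold in the whole table moved more, from 48 to 30 with quantile normalization, 28 with a pseudocount of 1, 1 with no filter, 9 without the variance trend, 132 with array weights and 144 without both replicate 1 arrays. With 1 array left out they ran from 0 (without not-elevated replicate 3, with 1395 at an unadjusted p under 0.05) to 131 (without not-elevated replicate 1). The cause of these moves was not tested. Using the dimmest probe set of a gene was not possible, since each gene has 1.

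With the replicate block, 50 probe sets and none of these genes passed, and the smallest limma adjusted p among these genes was 0.384. An unadjusted p under 0.05 was found for 4 of the 41 genes, against 9.34% of all tested probe sets. Deviations of same-numbered arrays correlated at -0.176 to -0.037, so no deviation shared by same-numbered arrays was seen. Whether the numbers mark a shared batch cannot be told from these values. The block changed no call of these genes.

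The median differences kept their sign in each family, except that of SCPL, which was 0.0074 with no filter, when dim genes are counted too. With 1 array left out they ran from -0.068 to -0.019 for UGT, -0.067 to -0.028 for SCPL and -0.099 to -0.0017 for BGLU. Of the 29 named genes, 16 kept their direction throughout. The 13 that turned it differed by at most 0.137 with all arrays, and the cause was not tested. With 1 array left out, log2 differences ran from -0.1445 to 0.0386 for BGLU15, -0.0482 to 0.2111 for BGLU25, -0.0179 to 0.0146 for BGLU44, -0.1109 to 0.0177 for BGLU47, -0.0072 to 0.0577 for SCPL26, -0.0003 to 0.1203 for SCPL29, -0.1472 to 0.0292 for UGT71C5, -0.1256 to 0.0857 for UGT76C1, -0.0356 to 0.2823 for UGT76C2, -0.2445 to 0.0002 for UGT78D1 and -0.0237 to 0.0857 for UGT80B1. Without both replicate 1 arrays they were -0.0370 for BGLU25, -0.0673 for SCPL29, -0.0278 for SCPL45, -0.0080 for UGT76C1, -0.0116 for UGT76C2, -0.0394 for UGT80B1 and 0.0049 for UGT88A1. With array weights they were -0.0115 for UGT76C2 and -0.0022 for UGT80B1.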

Other observations

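Of 6 further probe sets with symbols of these families that name more than 1 gene, 2 reached 20 units. These 2 are among all tested probe sets but belong to no count of UGT, SCPL or BGLU genes above. The probe set shared by UGT73B2 and UGT73B3 read 7.01, 10.8, 29.4 and 4.55 units in elevated replicates 1 to 4, against 8.87, 48.2, 54.0 and 30.2 units in not-elevated replicates 1 to 4. Its log2 difference was -0.95 ± 0.36 (SE; limma adjusted p = 0.337), and not-elevated replicate 1 and elevated replicate 3 each lay nearer to the other group. UGT73B1, a relative with a probe set of its own, averaged 27.0 ± 4.19 and 27.95 ± 2.74 units in elevated and not-elevated samples. The probe set shared by UGT89B1 and AT1G73885 averaged 102 ± 17.8 and 98.7 ± 13.4 units, in the same order.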
